A study of Mus musculus with 42 samples.

Results

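CXC chemokines are small secreted proteins that steer leukocytes, and this account follows the genes of 8 of them, chosen by symbol out of 21979 annotated genes: Cxcl1, Cxcl2, Cxcl3, Cxcl5, Cxcl9, Cxcl10, Cxcl11 and Cxcl16. RNA polymerase II (Pol II) and histone H3 lysine 27 acetylation (H3K27ac) were mapped by ChIP-seq in bone marrow-derived macrophages (BMDMs) from male C57Bl6/J mice aged 6 to 12 weeks. WT and Nur77-KO littermates were compared (the KO samples carry the genotype label cre). Nr4a1 encodes Nur77, an orphan nuclear receptor, and the KO was a whole-body deletion made by crossing a CMV-Cre line to mice with a floxed Nr4a1 gene and then breeding out Cre. Bone marrow cells were cultured for 7 days with L929-conditioned medium and then received 100 ng/ml lipopolysaccharide (LPS) for 0, 1 or 18 h. Each genotype and time had 3 libraries per antibody and 1 input library, 42 libraries in all. The labels do not say whether the 3 libraries of a group came from separate mice or cultures. The methods of the study speak of biological replicates without saying what was separate, so the p-values measure the spread between these samples, which may be technical. The comparisons ask how LPS and the loss of Nur77 change polymerase loading and acetylation at these genes.

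The members fall into groups by receptor. Cxcl1, Cxcl2, Cxcl3 and Cxcl5 encode ligands of CXCR2 that draw neutrophils to infected tissue, and in macrophages they are classic early targets of Toll-like receptor signalling through NF-kB. Cxcl9, Cxcl10 and Cxcl11 are known as interferon-inducible genes for ligands of CXCR3 on activated T cells and NK cells. The GENCODE annotation gives Cxcl11 the class of polymorphic pseudogene, and whether these mice make a working CXCL11 protein was not tested. Cxcl16 encodes a membrane-bound chemokine that is also a scavenger receptor, and its receptor is CXCR6. Pol II over a gene body reports polymerase engaged on the gene, and H3K27ac marks active promoters and enhancers.

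By the GENCODE annotation of mm10, 7 of the 8 genes lie on chromosome 5 in 2 clusters that are 1.42 Mb apart. Cxcl5 (chr5:90759360-90761624), Cxcl3 (chr5:90786103-90789600), Cxcl1 (chr5:90891241-90893115) and Cxcl2 (chr5:90903871-90905938) are on the plus strand within 146.6 kb. Cxcl9 (chr5:92321347-92328079), Cxcl10 (chr5:92346638-92348889) and Cxcl11 (chr5:92359544-92365485) are on the minus strand within 44.1 kb. Cxcl10 and Cxcl11 overlap Art3, a gene on the plus strand, so tags over them cannot be assigned to either gene. Cxcl16 (chr11:70453983-70459984, minus strand) overlaps Zmynd15, and its window also holds Med11. Cxcl1, Cxcl2 and Cxcl3 are similar in sequence, and reads that map to more than 1 of them could be placed wrongly.

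Promoters of 5 members were found in the RefSeq table (GRCm38.p6), and they are shown because the members differ in the motifs near their starts. Each run is read 5′ to 3′ along the gene's strand and ends at the RefSeq start or, for Cxcl1 and Cxcl2, at the GENCODE start that lies just before it. Capitals mark matches to the motifs searched.
Cxcl1, chr5:90890995-90891240 (plus strand): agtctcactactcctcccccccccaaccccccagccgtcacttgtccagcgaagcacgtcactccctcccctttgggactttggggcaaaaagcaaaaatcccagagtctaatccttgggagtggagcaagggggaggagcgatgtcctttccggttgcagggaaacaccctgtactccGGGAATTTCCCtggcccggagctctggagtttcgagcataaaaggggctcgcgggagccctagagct
Cxcl2, chr5:90903649-90903870 (plus strand): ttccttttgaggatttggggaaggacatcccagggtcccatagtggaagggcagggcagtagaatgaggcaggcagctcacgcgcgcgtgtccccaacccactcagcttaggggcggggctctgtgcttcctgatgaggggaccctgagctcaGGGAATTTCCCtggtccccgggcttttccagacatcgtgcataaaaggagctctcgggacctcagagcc
Cxcl3, chr5:90785851-90786100 (plus strand): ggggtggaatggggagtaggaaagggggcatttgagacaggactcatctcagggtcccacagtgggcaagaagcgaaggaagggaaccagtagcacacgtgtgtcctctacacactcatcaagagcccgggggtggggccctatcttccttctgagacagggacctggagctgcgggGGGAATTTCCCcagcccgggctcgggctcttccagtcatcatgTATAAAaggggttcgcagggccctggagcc
Cxcl9, chr5:92328080-92328329 (minus strand): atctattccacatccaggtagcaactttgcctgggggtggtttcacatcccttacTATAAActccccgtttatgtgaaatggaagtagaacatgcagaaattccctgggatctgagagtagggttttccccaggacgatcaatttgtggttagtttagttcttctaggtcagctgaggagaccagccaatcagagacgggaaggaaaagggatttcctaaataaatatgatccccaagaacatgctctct
Cxcl10, chr5:92348890-92349139 (minus strand): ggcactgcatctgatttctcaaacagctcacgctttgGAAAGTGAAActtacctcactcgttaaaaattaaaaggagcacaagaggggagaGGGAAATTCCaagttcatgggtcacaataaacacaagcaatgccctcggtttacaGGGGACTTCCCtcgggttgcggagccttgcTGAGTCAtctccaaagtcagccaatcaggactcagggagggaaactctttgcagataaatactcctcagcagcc
The 6 motifs searched, on both strands in the 250 bases before the RefSeq start, were NF-kB (by its name), the interferon response element or ISRE (GAAA, any 2 bases, GAAA), the STAT element or GAS (TTCNNNGAA), AP-1 (TGAGTCA), the Nur77 element or NBRE (AAAGGTCA) and the TATA box (TATAAA). Cxcl1, Cxcl2 and Cxcl3 each held the same NF-kB match in the same letters, which begins 71, 97 and 73 bases before the start. Cxcl10 held NF-kB matches that begin 159 and 104 bases before its start, an ISRE match at 213 and an AP-1 match at 74. Cxcl9 and Cxcl3 held a TATA match, at 195 and 30 bases. Neither the Nur77 element nor the STAT element occurred with these letters in the 5 windows. Among 27025 promoters of the same length, 7.01% held the NF-kB motif, 3.04% the ISRE, 7.18% the GAS, 4.43% AP-1, 1.31% the NBRE and 13.0% TATA. None of the 6 motifs overlapped another in these windows. The matches describe letters and were not tested for binding.

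The libraries held 21.7 to 36.1 M tags for Pol II, 13.5 to 55.4 M tags for H3K27ac (23.6 to 55.4 M tags in KO and 13.5 to 31.1 M tags in WT) and 25.6 to 45.3 M tags for input. Values are normalized tags, that is tags per 10 M tags, from the regions the authors called in each library, and a gene is listed at 0 where no region was called. For Pol II the tags were shared over the gene body with 500 bp on either side, and for H3K27ac over 2500 bp on either side of the start. Pol II over Nr4a1 itself was 189, 188 and 208 tags in WT and 87.8, 76.1 and 70.2 in KO at 0 h (log2 change −1.23, limma adjusted p = 0.00012). At 1 h it was 25.5, 23.0 and 30.4 in WT and 33.5, 39.0 and 36.6 in KO (0.36, 0.093), so the KO libraries lay above the WT ones, and at 18 h it was at most 7.46 in WT and listed at 0 in KO. H3K27ac around its start gave −0.05 (0.99), 0.20 (0.62) and −0.77 (0.14) at 0, 1 and 18 h. The windows cover more than the deleted part, so they do not measure the deletion itself. All 6 macrophage markers examined carried Pol II in all groups, while Cd3e and Cd3g of 3 T cell markers and Ly6g, S100a9, Mpo and Elane of 5 neutrophil markers were listed at 0. The third T cell marker, Lck, held 56.9 to 147 tags, the B cell markers Cd79a and Ms4a1 33.8 to 116 and 0 to 72.3, and the 3 endothelial markers summed to 149 to 641. Of 4 fibroblast markers, Pdgfra alone was above 0, at up to 6.21 tags in KO at 1 h. The remaining neutrophil marker, S100a8, was higher in KO at 0 h (39.3 to 45.3 against 15.4 to 16.6 tags, limma adjusted p = 0.0019) and at 1 h, at 8.62 to 17 against 0 in WT. In H3K27ac the neutrophil list, with S100a8 and Elane above 0 and the other 3 at 0, summed to 162 to 179 tags in KO against 72.4 to 86.4 in WT at 0 h, 65.0 to 113 against 20.3 to 29.4 at 1 h, where both genes were called higher in KO, and 20.9 to 93.9 against 18.6 to 33.4 at 18 h. The part of these markers in the results below was not tested. In bulk chromatin, fewer cells with an active gene and less polymerase per cell cannot be told apart.

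Pol II rose over Cxcl1, Cxcl2 and Cxcl3 within 1 h of LPS, and at 18 h it was below its starting level at Cxcl2 and no longer called at the other pair. Cxcl2, the member of this cluster with the most Pol II before LPS, held 265, 275 and 260 tags in untreated WT libraries. After 1 h these rose to 2978, 3240 and 3385 tags, and after 18 h they stood at 64.1, 58.1 and 59.6. No library of one time overlapped another time, and the 18 h libraries lay below the untreated ones. The log2 change was 3.53 ± 0.11 (SE, n = 3) from 0 to 1 h (limma adjusted p = 2.4e-15) and −1.97 ± 0.11 from 0 to 18 h (2.0e-11). The untreated KO libraries held 173, 179 and 134 tags over Cxcl2, the 1 h libraries 2929, 2613 and 2549, and the 18 h libraries 74.5, 72.4 and 93.8. The same order of times was seen, with changes of 3.98 (4.9e-16) and −0.93 (5.1e-07). The 18 h values stand beside input values of 21.1 tags in WT and 4.25 in KO over the same window.

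**Figure D1:**
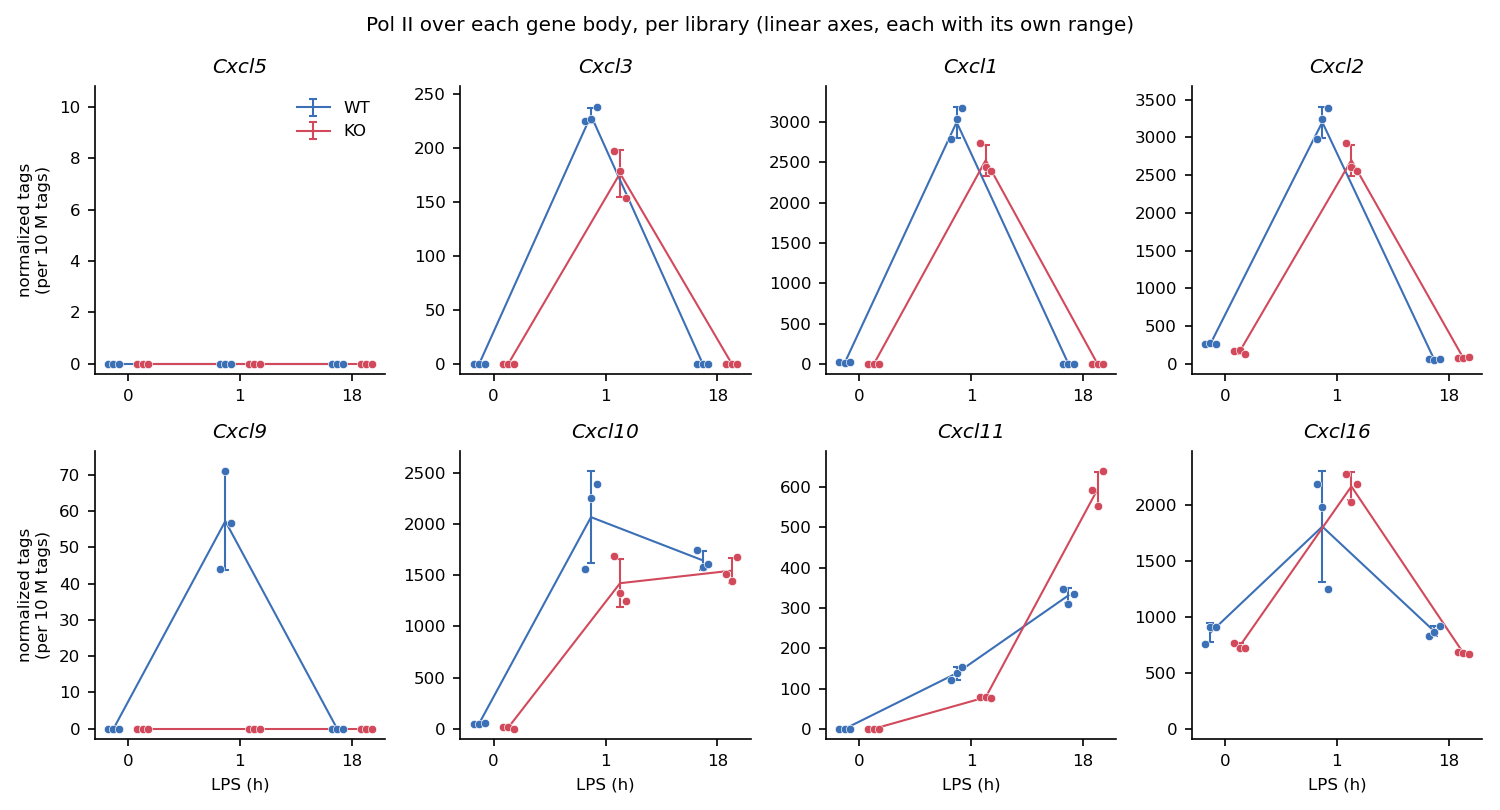
Normalized Pol II tags (per 10 M tags, linear axes with a range of their own) against hours of LPS for the 8 members, in WT (blue) and KO (red). Points are libraries and lines join group means with SD bars (n = 3). Cxcl1, Cxcl2 and Cxcl3 are high at 1 h alone, Cxcl10 lies between 1246 and 2394 tags at 1 and 18 h, Cxcl11 is highest at 18 h in KO (552 to 639 tags) and Cxcl5 is at 0.

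Cxcl1 followed the same course from a lower start. It was listed at 24.0, 6.67 and 18.4 tags in WT and at 0 in KO before LPS, at 2791, 3036 and 3172 in WT and 2745, 2448 and 2389 in KO at 1 h, and at 0 in the 6 libraries at 18 h. The 0 h values in WT lie within the range of the inputs, which held 6.85 tags in WT and 16.7 in KO at 0 h and up to 30.6 at other times. In WT, Cxcl1 rose by 6.90 on the log2 scale at 1 h (limma adjusted p = 2.1e-16), and in KO it rose from a group listed at 0 (3.4e-17). At 1 h the authors' caller joined Cxcl1 and Cxcl2 into a single region in the Pol II libraries of both genotypes. Their 1 h values are therefore shares of the same region at the same density and cannot be separated.

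Cxcl3 carried Pol II at 1 h alone, with 224, 227 and 238 tags in WT and 197, 179 and 153 in KO. It was listed at 0 in the other 12 libraries. Cxcl5 was listed at 0 in the 18 Pol II libraries, so the fourth ligand gene of the cluster showed no called polymerase at the times sampled.

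The CXCR3 ligand genes did not move as a block. Untreated WT libraries held 48.3, 51.2 and 55.8 tags over Cxcl10, 1 h libraries 1559, 2252 and 2394, and 18 h libraries 1750, 1580 and 1607. The 1 h and 18 h libraries overlapped each other and lay far above the untreated ones. The log2 change was 5.05 ± 0.27 (SE, n = 3) at 1 h (limma adjusted p = 6.3e-12) and 4.74 ± 0.27 at 18 h (3.4e-11), and the step from 1 to 18 h was −0.30 (0.29). With each library centred on its median, that step was −1.17 and passed (0.00094). In KO, Cxcl10 went from 15.3, 18.7 and 0 tags to 1692, 1330 and 1246 after 1 h, then 1511, 1444 and 1682 after 18 h. The changes were 6.20 (4.0e-13) and 6.32 (4.5e-13), and the step from 1 to 18 h was 0.13 (0.67). With median centring the KO step was −0.35 (0.26), while over the whole merged region it was 0.87 (limma adjusted p = 1.0e-05).

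Cxcl11 kept rising after 1 h. In WT it was listed at 0 before LPS, at 121, 139 and 154 tags at 1 h and at 348, 310 and 335 at 18 h. In KO it was listed at 0, then at 79.0, 79.2 and 76.8, then at 593, 552 and 639 tags. From 1 to 18 h the log2 change was 1.21 in WT (limma adjusted p = 4.4e-09) and 2.77 in KO (4.2e-14), with no overlap between the times. Cxcl9 was above 0 in the 3 WT libraries at 1 h alone, with 44.0, 70.9 and 56.7 tags, where the WT input at 1 h held 14.2. It was listed at 0 in the remaining 15 Pol II libraries. In WT at 1 h a called stretch lay at the 3′ end of the gene, at chr5:92320665-92323239 (33.1, 46.7 and 32.5 tags). Another lay in the middle of the gene, at chr5:92323978-92326217 (13.3, 24.2 and 19.6 tags), and a stretch near the start was called in 1 library.

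Cxcl16 was occupied before LPS and had the smallest LPS changes of the members called. The WT libraries held 759, 908 and 910 tags before LPS, 2182, 1981 and 1247 after 1 h and 830, 862 and 921 after 18 h. The 1 h libraries spread widely but lay above the other times. KO libraries held 765, 716 and 723 tags, then 2273, 2026 and 2187, then 688, 680 and 665. Pol II rose by 1.03 at 1 h in WT (limma adjusted p = 2.1e-06) and by 1.54 in KO (1.2e-08), and the log2 difference between 18 h and 0 h was 0.02 in WT (0.89) and −0.11 in KO (0.47). Inputs over this window held between 0 and 101 tags. The called region over the gene was 29.1 to 30.8 kb long at 0 h and 13.8 to 30.9 kb at 1 h, and the gene value is a share of that region. Over the whole merged region the rise at 1 h was smaller, from a mean of 3680 to 5452 tags in WT and from 3064 to 5601 in KO.

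Of the members, 7 of the 7 tested were higher at 1 h than at 0 h in WT and 6 of the 6 tested in KO, where 18.6% and 20.6% of all genes tested were higher. Cxcl3, Cxcl9 and Cxcl11, and in KO also Cxcl1, passed the filter through the 1 h libraries alone and so had to be higher, which leaves these counts as a description. The same holds wherever a group is listed at 0: at 18 h against 0 h for Cxcl1 in WT and Cxcl11 in both genotypes, and at 18 h against 1 h for Cxcl1 and Cxcl3 in both genotypes and Cxcl9 in WT. Over all genes the median log2 change was −0.82 in WT and −0.62 in KO. At 18 h against 0 h, 2 of 5 members tested were higher in WT (Cxcl10 and Cxcl11; 33.3% of all genes were higher) and 2 were lower (Cxcl1 and Cxcl2; 33.3% lower). In KO 2 of 4 were higher (Cxcl10 and Cxcl11; 28.1%) and 1 was lower (Cxcl2; 42.1%). Between 1 and 18 h, Cxcl11 was higher at 18 h in both genotypes (66.5% of all genes in WT and 55.2% in KO), while 5 members were lower in WT (18.8%) and 4 in KO (24.2%), 2 of them in each genotype (Cxcl2 and Cxcl16) with Pol II at both times.

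Levels can be compared between genes only per length. In tags per kb of the Pol II window, the order in WT at 0 h was Cxcl16 (123), Cxcl2 (87.0), Cxcl10 (15.9) and Cxcl1 (5.69), with the others at 0. At 1 h it was Cxcl2 and Cxcl1 (1043 each), Cxcl10 (636), Cxcl16 (258), Cxcl3 (51.1), Cxcl11 (19.9) and Cxcl9 (7.40). At 18 h it was Cxcl10 (506), Cxcl16 (124), Cxcl11 (47.7) and Cxcl2 (19.7). Cxcl2 moved from the head of the order at 1 h to the last place among the genes above 0 at 18 h, and Cxcl10 took the lead. Neighbours in these orders did not overlap across their 3 libraries, apart from Cxcl1 and Cxcl2 at 1 h and the genes at 0. The KO order was the same at 0 and 18 h among the genes above 0, except that Cxcl1 was at 0 and the Cxcl10 range reached 0 before LPS.

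The same division was seen in the regions along the clusters. Merged regions within 20 kb of each cluster were tested, and a region was called at an adjusted p under 0.05 and a log2 change over 1. From 0 to 18 h in WT, 4 of the 4 Pol II regions tested in the Cxcl5-Cxcl2 cluster were lower (18.0% of all regions) and 4 of 6 in the Cxcl9-Cxcl11 cluster were higher (13.1%). In KO the counts were 4 of 4 lower (22.0%) and 4 of 6 higher with 1 lower (15.0% higher). At 1 h both clusters had regions that were higher, 3 of 5 and 7 of 8 in WT (9.35%) and 3 of 5 and 4 of 6 in KO (11.8%). Some of these regions were found in 2 or more libraries at 1 of the times compared alone, which fixed their direction. In the Cxcl5-Cxcl2 cluster this was so for 2 of the 4 lower at 18 h and 1 of the 3 higher at 1 h in each genotype, and in the Cxcl9-Cxcl11 cluster for 2 of the 4 higher at 18 h in each genotype and, at 1 h, for 4 of 7 in WT and 2 of 4 in KO. The counts are therefore descriptions. Regions of a cluster lie next to each other and some are parts of the same domain, so they are not independent.

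Before LPS, Cxcl1, Cxcl2 and Cxcl10 held less Pol II in KO than in WT. Cxcl2 was lower by 0.70 ± 0.11 on the log2 scale (SE, n = 3, limma adjusted p = 0.00041), with KO libraries at 134 to 179 tags and WT libraries at 260 to 275. Cxcl10 changed by −1.67 ± 0.27 (0.00058), with 0 to 18.7 tags in KO and 48.3 to 55.8 in WT. Cxcl1 was listed at 0 in KO and at 6.67 to 24.0 tags in WT (8.5e-05), within the range of its inputs. Cxcl16 showed −0.22 (0.43), with ranges of 716 to 765 and 759 to 910 that overlap. Of the 4 members tested 3 were lower in KO, beside 2.70% of all genes tested, and the median over all genes was 0.04. Cxcl1 entered through the WT libraries alone and had to be lower, which leaves Cxcl2 and Cxcl10. The Cxcl2 call held under 14 of the 14 alternative settings that could be run and the Cxcl10 call under 13 of 13. The Cxcl1 call was lost in a window of 500 bp on either side of the start (0.17).

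The region that spans Cxcl1 and Cxcl2 (chr5:90887972-90910735) gave the same direction, with 694, 652 and 682 tags in WT and 384, 422 and 318 in KO at 0 h (log2 change −0.84, limma adjusted p = 5.2e-05). It covered 10.8 to 13.4 kb in WT and 8.27 to 9.38 kb in KO, at 51.1 to 60.2 and 36.5 to 46.5 tags per kb. Both the length and the density of the called region were lower in KO.

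At 1 h the genotypes differed most at Cxcl9 and Cxcl11. Cxcl9, listed at 44.0 to 70.9 tags in WT, was listed at 0 in the 3 KO libraries (limma adjusted p = 2.4e-10). Cxcl11 was lower in KO by 0.74 ± 0.10 on the log2 scale (SE, n = 3, 3.2e-05), with 76.8 to 79.2 tags against 121 to 154. Cxcl3 was lower by 0.37 ± 0.12 (0.018), with 153 to 197 tags against 224 to 238, but this call was lost with a pseudocount of 1 (0.23) and without replicate 2 (0.11) or replicate 3 (0.17). Cxcl1 (−0.25, 0.26), Cxcl2 (−0.25, 0.070), Cxcl10 (−0.52, 0.11) and Cxcl16 (0.30, 0.086) did not pass. For Cxcl16 the WT libraries held 2182, 1981 and 1247 tags and the KO libraries 2273, 2026 and 2187, so that WT replicate 3 lay far below the others, and in that library the region over the gene was 30.9 kb long against 13.8 to 15.6 kb in the other 5 libraries. Without replicate 3 the change was 0.046 (0.75), and over the whole merged region 0.038 (0.54). With 500 bp counted on each side of the start Cxcl2 (0.048) and Cxcl10 (0.043) passed, and with quantile normalization Cxcl10 passed (0.045). In the original setting 3 of 7 members tested were lower in KO, beside 7.54% of all genes lower and 45.6% called in either direction. Cxcl9 entered through the WT libraries alone and had to be lower, so its place in the count is a description, and 2 members are left with the filter that needs tags in each library.

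Over all genes, KO stood 0.24 above WT at 1 h and 0.10 below it at 18 h (median log2). Relative to that shift, with each library centred on its median, 5 members were called lower in KO at 1 h (21.4% of all genes lower and 15.6% higher), since Cxcl2 (−0.50, limma adjusted p = 0.0039) and Cxcl10 (−0.78, 0.036) then passed, and Cxcl16 came to 0.05 (0.81). At 18 h the same centring gave 15.3% higher and 7.75% lower. Macrophage markers summed to 26247 to 26965 Pol II tags in WT and 16626 to 17258 in KO at 1 h, with 6 of 6 above 0 in both, to 17968 to 20461 and 20165 to 20677 at 0 h, and to 37494 to 38102 and 31856 to 33016 at 18 h. Adgre1 made up most of the sum at 1 h (a mean of 22417 in WT and 13172 in KO). At 1 h 3 of the 6 were lower in KO and 1 was higher, Csf1r (0.42, limma adjusted p = 2.7e-05), and at 18 h 4 were lower and 1 was higher. Their part in the results was not tested.

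By 18 h the direction at Cxcl11 had turned. KO libraries held 552 to 639 tags and WT libraries 310 to 348, a log2 change of 0.82 ± 0.10 (SE, n = 3, limma adjusted p = 1.7e-05). Both Cxcl11 calls, lower in KO at 1 h and higher at 18 h, held under 13 of the 13 alternative settings that could be run. The 500 bp window around the start could not be run for this gene: its called regions covered 48.0 to 70.6% of the gene window at 1 and 18 h, and the merged region ends 1.5 kb short of the start. Cxcl2 was higher in KO by 0.35 ± 0.11 (0.029), with 72.4 to 93.8 tags against 58.1 to 64.1, but that call was lost when any 1 replicate was left out (0.069, 0.12 and 0.18). Cxcl10 showed −0.09 (0.84) and Cxcl16 −0.36 (0.077), the latter with ranges of 665 to 688 and 830 to 921 that do not overlap. So 2 of the 4 members tested were higher in KO, beside 7.58% of all genes. Input at 18 h held 41.4 tags over Cxcl11 in WT and 4.89 in KO. The KO input at 18 h stood apart, with 27554 called regions against 64725 to 108461 in the other inputs, so its values are low throughout.

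The Cxcl10 value at 18 h depended on where its Pol II was counted. The merged region around the gene (chr5:92340714-92355757) held 4810, 4667 and 4639 tags in WT and 6499, 6374 and 7285 in KO at 18 h. It was longer in KO, at 14.0 to 14.3 kb against 12.6 to 12.8 kb, and denser, at 444 to 517 against 366 to 382 tags per kb. The log2 change was 0.51 (limma adjusted p = 0.027), which is past the p threshold but under the size threshold for a region call. At 1 h the same region held 5555, 5652 and 5914 tags in WT and 3984, 3462 and 3541 in KO, a change of −0.64 (0.0036). The value of a gene is its share of the whole called region at the mean density of that region. In the 3 KO libraries at 18 h the region that holds Cxcl10 reached about 6 kb upstream of the start, and in the 3 WT libraries the stretch over the Cxcl10 upstream side was called apart, at 50.6, 42.1 and 45.7 tags per kb. The whole-region count was added after the data had been seen.

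The Cxcl11 value is its share of a single region (chr5:92356815-92363944), so the totals of that region are the same measurement and no separate support. It held 132, 157 and 173 tags in WT and 90.0, 79.3 and 89.0 in KO at 1 h (log2 change −0.77, limma adjusted p = 1.1e-05), and 470, 414 and 445 in WT and 808, 804 and 859 in KO at 18 h (0.88, 2.7e-06). No library of one genotype overlapped the other at either time. At Cxcl16, the merged region (chr11:70431488-70465008, which also covers Arrb2, Med11 and Zmynd15) was lower in KO at 0 h (−0.26, 0.0026) and at 18 h (−0.37, 4.0e-05), both under the size threshold. Over the regions near the members, 1 of 10 tested was called between genotypes at 0 h (the Cxcl10 region, 2.28% of all regions), 2 of 15 at 1 h (the stretches of Cxcl9, at 0 in KO, which had to be lower; 8.63%) and 0 of 10 at 18 h with limma (6.18%). The counts at an adjusted p under 0.05 without the size threshold were 4, 9 and 6 (6, 9 and 6 at an unadjusted p), beside 14.5%, 51.2% and 29.6% of all regions at that adjusted p.

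**Figure D2:**
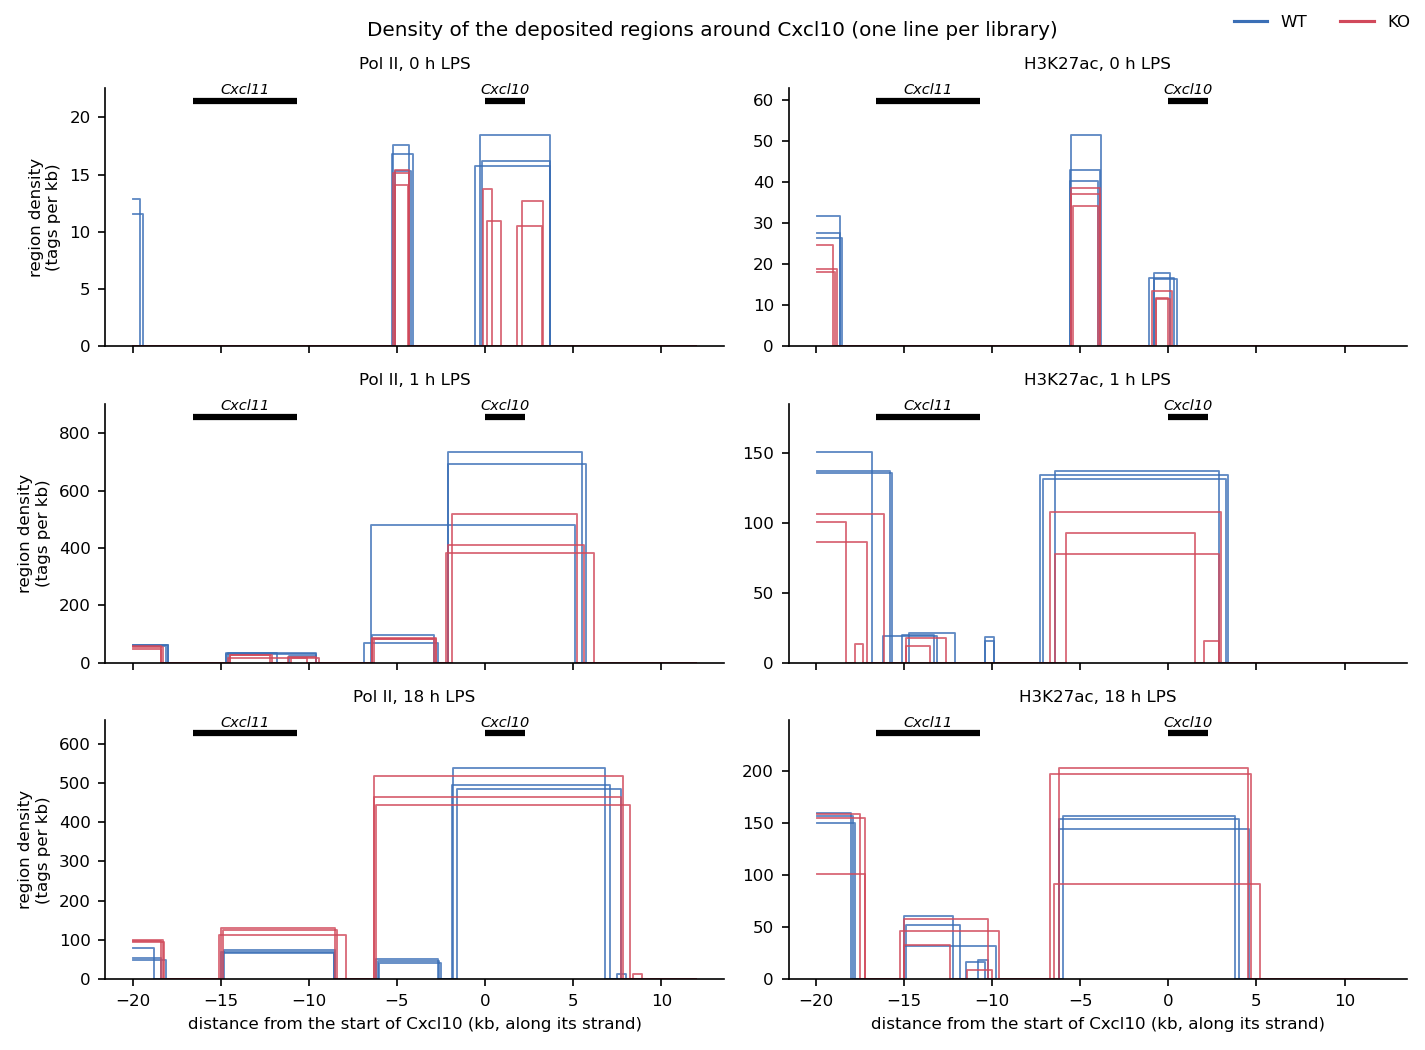
Density of the regions called in each library (tags per kb) against distance from the Cxcl10 start (kb, along its strand) at 0, 1 and 18 h, with 1 line per library in WT (blue) and KO (red), Pol II on the left and H3K27ac on the right. Black bars mark Cxcl10 and Cxcl11. At 18 h the Pol II region over Cxcl10 reaches farther upstream in the 3 KO libraries, and over Cxcl11 the KO lines (113 to 131 tags per kb) lie above the WT lines (66.0 to 74.7).

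**Figure D3:**
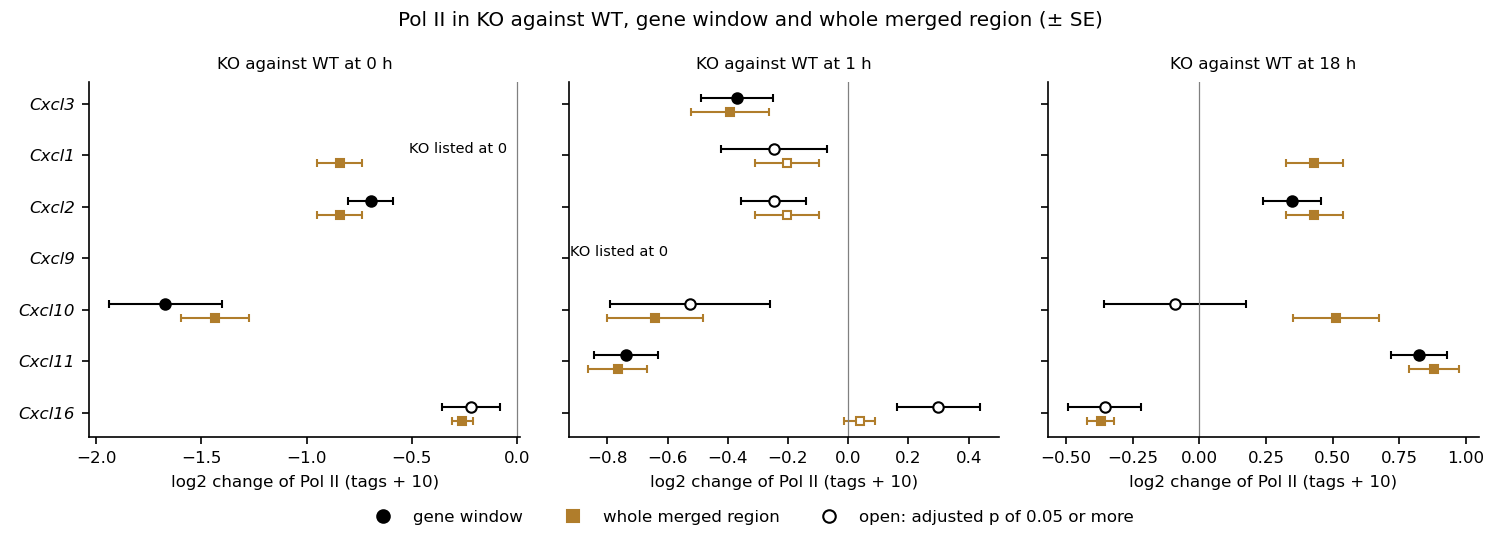
Log2 change of Pol II in KO against WT (normalized tags + 10, bars are SE) at 0, 1 and 18 h for the gene window (circles) and the whole merged region (squares), where Cxcl1 and Cxcl2 share a region. Filled symbols have an adjusted p under 0.05, and no gene value is drawn where KO is listed at 0. The values lie left of 0 before LPS, and Cxcl11 changes side between 1 h (−0.74) and 18 h (0.82).

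The response to LPS was then compared between genotypes by the interaction term. At 18 h against 0 h, 4 of the 5 members tested differed, beside 14.8% of all genes: the log2 change was higher in KO by 1.04 at Cxcl2 (limma adjusted p = 0.00017), by 1.58 at Cxcl10 (0.0096) and by 0.82 at Cxcl11 (0.00098), and Cxcl1 also passed (0.0015), with KO at 0 at both times. Cxcl1 was above 0 in WT at 0 h alone, so its term had to be positive. Cxcl11 was listed at 0 before LPS, so its term is the same as its difference at 18 h. The count is therefore a description. The KO values at 0 h that enter these terms were the lower ones at Cxcl2 and Cxcl10, whose direct differences between genotypes were −0.70 and −1.67 before LPS against 0.35 and −0.09 after 18 h. The Cxcl2 and Cxcl11 calls held under each of the 14 and 12 settings that could be run, the Cxcl10 call under 10 of 13 and the Cxcl1 call under 10 of 13. At 1 h against 0 h, where Cxcl9 is above 0 in a single group and Cxcl1 is at 0 in KO before LPS, 5 of 7 members passed, beside 18.4% of all genes: Cxcl9 (6.0e-08), Cxcl11 (−0.74, 0.0024, the same as its difference at 1 h since it was listed at 0 before LPS), Cxcl1 (0.0065), Cxcl10 (1.15, 0.045) and Cxcl2 (0.45, 0.049). At 1 h the Cxcl11 call held under 10 of 12 settings, the Cxcl1 call under 8 of 13 (lost at 0.098 to 0.80), and the Cxcl10 and Cxcl2 calls under only 5 of 13 and 5 of 14. With the filter that needs tags in each library, Cxcl2 was the member called (0.046).

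For H3K27ac some libraries stood apart, and results are given with and without them. Over 10447 genes, replicate 1 of KO at 1 h correlated with the other KO libraries at 0.910 and 0.911 (Pearson r of log2 values, across genes, which are not replicates) and with the WT libraries at 0.978 to 0.980. The other KO libraries at 1 h correlated at 0.991 with each other and at 0.902 to 0.905 with WT. At 18 h replicate 1 of KO correlated at 0.913 and 0.914 with the other KO libraries, at 0.906 to 0.908 with WT and at 0.904 and 0.905 with replicates 2 and 3 of KO at 1 h, while the other KO libraries at 18 h reached 0.979 to 0.982 with WT. With replicate 1 of KO at 1 h it correlated at 0.818. Replicate 1 of KO at 1 h thus lay nearer to WT than to its own group, as did replicates 2 and 3 of KO at 18 h to WT than to replicate 1. Whether libraries were exchanged cannot be told from the files, and the H3K27ac values between genotypes depend on it.

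LPS raised H3K27ac at 6 members within 1 h, and Cxcl9 and Cxcl5 were listed at 0 at that time. Around the Cxcl10 start the untreated WT libraries held 23.6, 16.4 and 22.0 tags, the 1 h libraries 687, 672 and 658, and the 18 h libraries 785, 772 and 721. The treated libraries lay far above the untreated ones, with log2 changes of 4.48 ± 0.23 (SE, n = 3, limma adjusted p = 4.2e-10) and 4.66 ± 0.23 (1.8e-10). Cxcl11 held 15.6, 15.1 and 12.8 tags, then 384, 461 and 480, then 222, 230 and 222. It rose by 4.20 (2.7e-08) and 3.26 (3.5e-07), and its 18 h libraries lay between the other times.

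The acetylation at Cxcl2 was higher at 1 h and lower at 18 h than before LPS, but neither call held throughout. WT libraries held 129, 396 and 104 tags before LPS, then 592, 511 and 476, then 56.9, 31.0 and 45.7, with changes of 1.52 (limma adjusted p = 0.018) and −1.80 (0.0077). The value of 396 comes from a library in which the region next to Cxcl2 was called through the gene, and without that replicate the change at 18 h was −1.04 (0.22). The rise at 1 h was lost without replicate 3 (0.16), without a filter (0.061) and with input subtracted (0.069). The 18 h values stand beside a WT input of 34.6 tags at that time. As for Pol II, Cxcl1 and Cxcl2 shared a called region at 1 h, though in replicate 1 of WT and replicate 2 of KO regions covered only 70.9% and 67.6% of the Cxcl1 window. Cxcl1 went from 10.1 to 13.8 tags to 136, 511 and 476 at 1 h (3.92, 1.3e-05) and to 0 at 18 h. Cxcl3 went from 0.724 to 9.48 tags to 83.2, 82.7 and 42.2 (2.31, 0.00048) and to 0, though with the least dense regions of each library left out the rise was 1.41 (0.14) and the fall from 1 to 18 h −1.41 (0.13). Cxcl16 held 407 to 477 tags at 0 h, 767 to 995 at 1 h and 837 to 893 at 18 h, rises of 0.93 (0.00065) and 0.95 (0.00060), while its Pol II libraries at 18 h overlapped those at 0 h. Cxcl9 was listed at 0 in 17 of the 18 H3K27ac libraries, and Cxcl5 did not exceed 23.0 tags.

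In all, 6 of the 6 members tested were higher at 1 h in WT and in KO (25.3% and 20.4% of all genes). Cxcl3 in KO, above 0 in 1 library at 0 h, entered through the 1 h libraries and had to be higher. Over the whole merged region that Cxcl1 and Cxcl2 share, the rise in KO did not pass (0.52, limma adjusted p = 0.26), with 853, 876 and 821 tags at 0 h and 2021, 903 and 992 at 1 h, where replicate 1 stands apart. At 18 h against 0 h, 3 of 7 were higher and 1 was lower in WT (23.5% and 26.4%), and 3 of 5 were higher in KO (18.5%). Of those, the Cxcl16 rise in KO (0.71, limma adjusted p = 0.0053) was lost without replicate 2 (0.12) or 3 (0.11), over the whole region (0.058) and with replicate 1 as the sole KO library (0.32). From 1 to 18 h, Cxcl1, Cxcl2, Cxcl3 and Cxcl11 were lower in WT (4 of 7, 28.5% of all genes), and in KO Cxcl1, Cxcl2 and Cxcl3 were lower (3 of 6, 27.2%) and Cxcl10 was higher (1 of 6, 17.2%). Cxcl1 and Cxcl3 were at 0 in WT at 18 h and above 0 in 1 of 3 KO libraries, so they entered through the 1 h libraries and had to be lower, which leaves 2 members in WT and 1 in KO. The Cxcl11 change in WT was −0.94 (limma adjusted p = 0.016) around the start but 0.09 (0.64) over its whole merged region, and it was lost without a filter (0.053) and without replicate 3 (0.17). The Cxcl10 rise in KO (0.83, 0.0071) was lost without replicate 2 or 3 (0.22 each) and came to −0.23 (0.33) with replicate 1 as the sole KO library. With that library alone the falls of Cxcl2 (0.29) and Cxcl3 (0.23) in KO were lost too, as they were without replicate 2 (0.090 and 0.051) or 3 (0.13 and 0.074). The regions near the clusters divided as for Pol II. From 0 to 18 h in WT, 6 of the 9 H3K27ac regions tested in the Cxcl5-Cxcl2 cluster were lower and 0 were called higher by limma (25.5% of all regions lower), and 4 of 7 in the Cxcl9-Cxcl11 cluster were higher (13.5%), of which 2 of the 6 and 1 of the 4 entered through 1 of the times alone. The region that ends 5.2 kb before the Cxcl1 start (chr5:90872359-90886089) held 1048, 1051 and 958 tags in untreated WT libraries, 1900, 1830 and 1892 after 1 h and 369, 372 and 363 after 18 h.

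**Figure D4:**
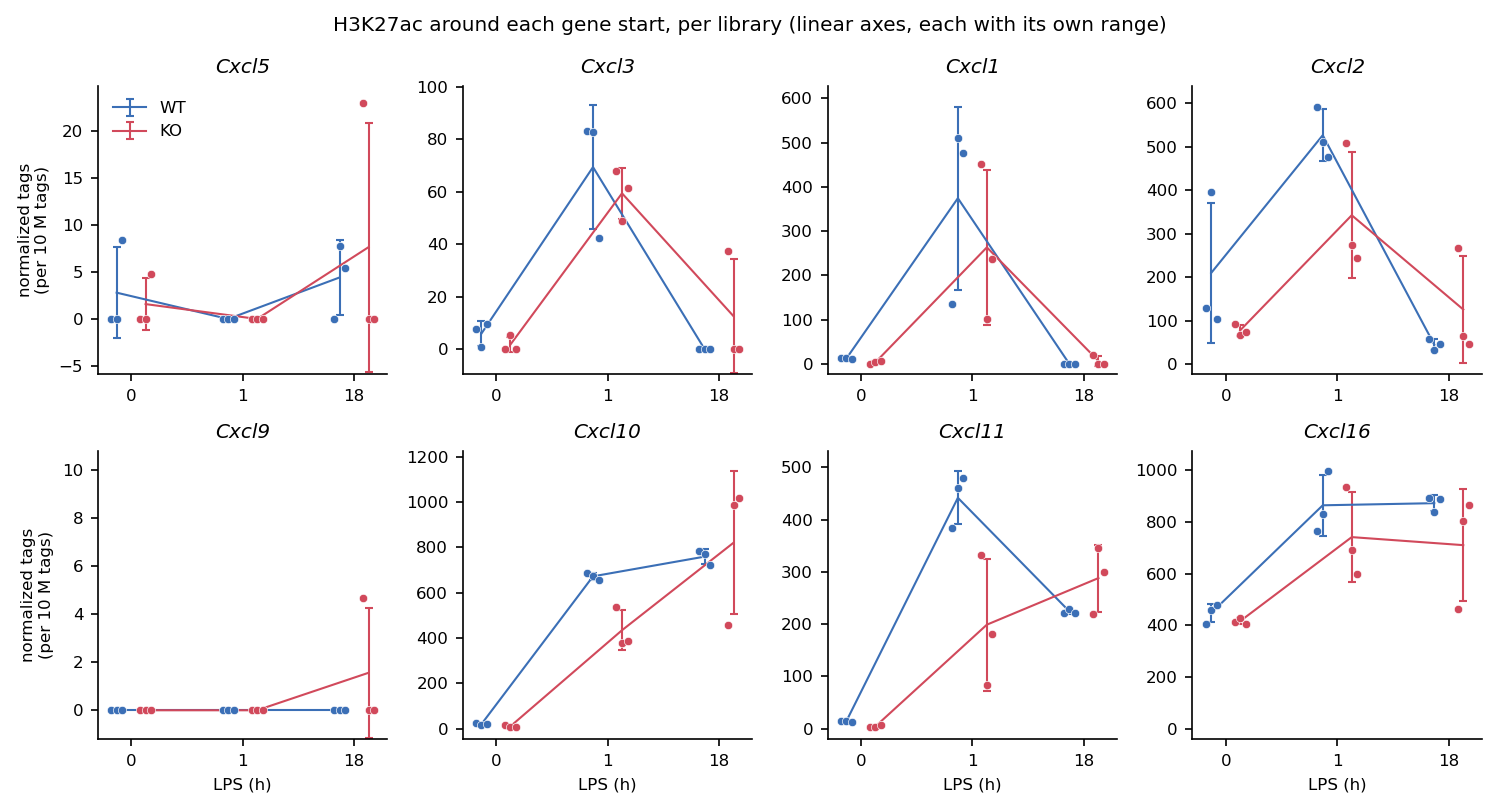
Normalized H3K27ac tags (per 10 M tags, linear axes with a range of their own) against hours of LPS for the 8 members, in WT (blue) and KO (red). Points are libraries in the order of replicates 1 to 3 from left to right, and lines join group means with SD bars (n = 3). The KO libraries spread widely at 1 and 18 h, where replicate 1 lies apart from the other KO libraries, as at Cxcl10 at 18 h (458 against 987 and 1017 tags).

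Genotype differences in H3K27ac depended on the libraries that stood apart. At 0 h the KO libraries were below the WT libraries at Cxcl1 (0 to 7.08 against 10.1 to 13.8 tags), Cxcl2 (66.8 to 92.4 against 104 to 396), Cxcl10 (9.14 to 14.7 against 16.4 to 23.6) and Cxcl11 (2.76 to 6.48 against 12.8 to 15.6) with no overlap. The inputs over these windows held 0 to 51.2, 3.40 to 91.7, 0 to 63.9 and 0 to 29.3 tags, so the values at Cxcl1, Cxcl10 and Cxcl11 lie within the range of the inputs. None of the 6 members tested passed limma's adjusted threshold (3 had an unadjusted p under 0.05), beside 0.761% of all genes. The log2 changes at 0 h were −1.10 for Cxcl2 (limma adjusted p = 0.48), −0.54 for Cxcl10 (0.42) and −0.77 for Cxcl11 (0.39), with −0.75 for Cxcl1 (0.73), −0.42 for Cxcl3 (0.87) and −0.10 for Cxcl16 (0.96). These use a spread estimated over all groups. Without replicate 1 of KO at 1 and 18 h (10.2% of all genes called) the changes of Cxcl2, Cxcl10 and Cxcl11 passed (0.049, 0.0029 and 0.018), and without replicates 2 and 3 of KO at those times Cxcl10 (0.0078) and Cxcl11 (0.00096) passed while Cxcl2 did not (0.069; 9.37% called).

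At 1 h Cxcl11 alone passed, with 333, 82.9 and 181 tags in KO against 384 to 480 in WT (log2 change −1.30, limma adjusted p = 0.013), 1 of 6 members tested beside 18.3% of all genes, 7.29% lower. Without replicate 1 of KO it was −1.75 (5.8e-06) and Cxcl10 (−0.80, 1.8e-05), Cxcl2 (−0.99, 0.035) and Cxcl16 (−0.41, 0.0022) passed as well, where 59.8% of all genes were called and 24.3% were lower. With replicate 1 as the sole KO library, Cxcl11 was −0.39 (0.14) and no member passed (8.55% of all genes did). The Cxcl11 call was also lost when replicate 2 was left out of all groups (−0.78, 0.38) or replicate 3 (−1.27, 0.32). Cxcl10 held 538, 377 and 389 tags in KO against 658 to 687 in WT, lower in each of the 3 libraries (−0.64, 0.060). Cxcl1 (−0.51, 0.50), Cxcl2 (−0.68, 0.35), Cxcl3 (−0.15, 0.83) and Cxcl16 (−0.24, 0.38) did not pass.

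At 18 h the sign itself depended on the library. Cxcl10 held 458, 987 and 1017 tags in KO and 721 to 785 in WT, a log2 change of 0.03 (limma adjusted p = 0.97), of 0.40 (0.018) without replicate 1 and of −0.72 (0.0036) with replicate 1 alone. Cxcl16 held 463, 803 and 864 tags in KO against 837 to 893 (−0.34, 0.33), with −0.07 (0.68) without replicate 1 and −0.90 (0.00026) with replicate 1 alone. Cxcl2 held 266, 63.6 and 46.3 tags in KO against 56.9, 31.0 and 45.7 in WT (0.97, 0.30), with 0.27 (0.66) without replicate 1 of KO and 2.37 with it as the sole KO library. With input subtracted Cxcl2 passed (2.41, 0.017). The 18 h inputs over this window held 34.6 tags in WT and 3.40 in KO, so the subtraction took away most of the WT values and little of the KO ones. Cxcl5 (0.09, 0.94) and Cxcl11 (0.32, 0.61) did not pass, and Cxcl1, Cxcl3 and Cxcl9 were not tested. None of 5 members passed in the full set, nor had an unadjusted p under 0.05, beside 3.20% of all genes. No interaction passed at 1 h (0 of 6 members, none at an unadjusted p under 0.05, beside 0.534%) or at 18 h (0 of 7, 2 at an unadjusted p under 0.05, beside 0.604%). No H3K27ac region near the members was called between genotypes at 0 h (0 of 14, 2 at an unadjusted p under 0.05, beside 1.87%), 1 h (0 of 20, 9 at an unadjusted p, beside 14.2%) or 18 h (0 of 15, 4 at an unadjusted p, beside 3.70%), with limma. At an adjusted p under 0.05 but under the size threshold there were 5 regions at 1 h, all lower in KO (33.5% of all regions passed that p and 10.9% were lower), among them those of Cxcl10 (−0.74, limma adjusted p = 0.021) and Cxcl11 (−0.71, 0.0060). At 18 h there was 1, near Cxcl16 (−0.64, 0.00015), beside 9.72% of all regions.

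The receptors of CXC chemokines were counted as a list of 8 genes. In WT 4 of them were tested at 1 h, of which 1 was higher and 3 were lower, where 68.3% of all genes were lower. Cxcr4, the receptor of CXCL12, held 412, 432 and 435 tags before LPS and 66.5, 69.9 and 61.1 after 1 h (log2 change −2.53, limma adjusted p = 3.2e-14). Cxcr6, the CXCL16 receptor, went from 19.0, 7.71 and 13.4 to 45.5, 27.4 and 51.4 tags (1.14, 0.014) and to 131, 140 and 146 at 18 h (2.70, 1.2e-05). In KO at 1 h, 3 of the 3 receptor genes tested were higher than in WT, Cxcr4 by 0.63 (5.2e-05), Cxcr5 by 0.33 (0.0097) and Cxcr6 by 1.20 (0.021), where all genes stood 0.24 higher and 38.1% were called higher. Cxcr6 in KO at 1 h ranged from 53.5 to 271 tags. At 18 h 1 of 3 was lower in KO, Cxcr4 by 0.44 (0.0026), beside 13.4% of all genes.

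Of 7 other CXC ligand genes, Pf4 and Cxcl14 had Pol II in enough libraries to be tested at 0 h. Pf4, which lies between Cxcl5 and Cxcl3 and encodes platelet factor 4, held 134, 142 and 160 tags in untreated WT libraries, 122 to 145 after 1 h and at most 2.08 after 18 h (limma adjusted p = 1.2e-14 for 18 against 0 h), and it was listed at 0 in KO at 18 h. It did not differ past the threshold between genotypes at 0 h (−0.33, 0.14) or 1 h (0.05, 0.74). From 0 to 1 h, when Cxcl1, Cxcl2 and Cxcl3 in the same cluster rose, Pf4 changed by −0.11 (0.41) in WT and 0.27 (0.051) in KO. Of 11 genes next to the chromosome 5 clusters, KO had less Pol II than WT at 1 of the 7 tested before LPS and at 1 of 7 after 1 h, when another 2 had more, while after 18 h 1 of 6 had more, shares to be read beside the 2.70% and 7.54% of all genes lower at 0 and 1 h and the 38.1% and 7.58% higher at 1 and 18 h. Art3, which overlaps Cxcl10 and Cxcl11, gave the same genotype pattern as the Cxcl10 region (−0.82, −0.60 and 0.51 at 0, 1 and 18 h, all called), and it shares tags with that region. Nup54, next to the same cluster, rose by 2.44 at 1 h in WT (7.1e-13) and showed −0.22 (0.29), 0.07 (0.62) and −0.14 (0.41) between genotypes.

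Genes with the most similar Pol II pattern were ranked by Pearson r of log2 values over the 18 libraries, which share 6 groups, among 12650 genes. Closest to Cxcl2 were Nlrp3 (0.997), Ppfibp1 (0.995) and Olfr222 (0.992). Nlrp3, the inflammasome sensor, had a mean of 2236 tags in WT at 0 h, 11331 at 1 h and 1107 at 18 h. Closest to Cxcl10 were Gbp5 (0.988), Art3 (0.986) and Rapgef2 (0.986). Gbp5, an interferon-inducible guanylate-binding protein, had mean values of 57.4 in WT and 11.7 in KO at 0 h and 5408 and 7189 at 18 h. Closest to Cxcl16 were Med11, which shares its region, Epb41l2 (0.969) and Nckap1l (0.966).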

How the data were processed

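Pol II, H3K27ac and input ChIP-seq libraries from mouse BMDMs were aligned to mm10 by the authors (HISAT2 2.1.0), and regions were called by the authors in each library with HOMER in its histone style, without input as background (window 500 bp, joined over 1000 bp, Poisson p of 0.001 per the file headers). The signal used is the deposited Normalized Tag Count per region (tags per 10 M tags). The score columns that the authors deposited with each region were read only to describe the files and enter no result. A stretch without a called region is listed at 0, which is not a measured zero. Replicates were not pooled.

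Each region's tags were shared by overlap over gene windows (GENCODE vM21, GRCm38). The design named protein-coding genes, and 82 polymorphic pseudogenes were added because Cxcl11 has that class, while 54 entries with a duplicated symbol were left out. Regions of all libraries of an antibody were merged for region tests. limma 3.58.1 (R 4.3.3) was fitted to log2(tags + 10) with 6 group means and a trended prior, for each contrast over genes above 0 in at least 2 of the 3 libraries of a group compared, with Benjamini-Hochberg adjustment over all genes tested. The threshold for a gene was an adjusted p of 0.05, and a region also needed a log2 change over 1. Fold changes are on the log2(tags + 10) scale, which understates those of low genes. The fit was tested on simulated data. Tag numbers cannot be turned back into counts, so no interval for counting error is given.

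The members, gene lists and tests were chosen with earlier results of these data known. The members are named whether called or not, the targeted gene is given between genotypes, and receptors, other ligands and neighbours are counted as lists. Likeness names, for Cxcl2, Cxcl10 and Cxcl16, the 3 genes with the highest Pearson r over the 18 Pol II libraries among genes with a mean of at least 20 tags in a group. Alternatives changed the pseudocount, filter, scaling, replicates, replicate block, window, region threshold and input. Whole merged regions, Pol II region tests and H3K27ac regions without KO replicate 1 were added after seeing the data. Figures were drawn with matplotlib 3.10.9 in Python 3.11.15.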

Additional observations from a re-analysis of the deposited data

Results flagged for a closer look

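The difference between KO and WT in the Pol II response to LPS passed the test of the interaction term (limma, adjusted over all genes) for 9 combinations of member and time. At 1 h against 0 h these were Cxcl9 (adjusted p = 5.969e-08, above 0 in WT alone), Cxcl11 (−0.74 on the log2 scale, 0.002372), Cxcl1 (0.006459), Cxcl10 (1.15, 0.04465) and Cxcl2 (0.45, 0.04866). At 18 h against 0 h they were Cxcl2 (1.04, 0.0001695), Cxcl11 (0.82, 0.0009847), Cxcl1 (0.001545) and Cxcl10 (1.58, 0.009554). Each difference is KO minus WT. Cxcl11 is the member whose interaction had opposite signs at 1 h and 18 h, lower in KO at 1 h and higher at 18 h. Cxcl1 before LPS was within the range of the inputs in WT and listed at 0 in KO, which enters both of its terms, and its 1 h term was lost under 5 of 13 other settings. The 1 h terms of Cxcl10 and Cxcl2 were lost under 8 of 13 and 9 of 14 other settings, among them the omission of any 1 replicate (adjusted p of 0.059 to 0.18 and 0.087 to 0.19) and the replicate block (0.053 and 0.067). The Cxcl9 term rests on the single group in which the gene was above 0, and the 18 h term of Cxcl1 likewise rests on WT at 0 h. The Cxcl11 terms are its differences between genotypes at 1 h and 18 h, since it was listed at 0 before LPS.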

How the results depend on the processing

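The tag total of each library is known but not the reads behind a region, so a value of 0 sets no limit on tags under the caller's threshold, and counting error cannot be given. Counts of members called are limited by the filter, since a gene listed at 0 in a group drops out of the stricter filter. Under it the Pol II counts were 1 for KO against WT at 0 h (6.23% of all genes), 4 and 2 for 1 h against 0 h in WT and KO (85.9% and 81.6%), 2 and 1 for 18 h against 0 h (64.7% and 68.3%), 3 and 3 for 18 h against 1 h (84.5% and 78.3%), and 1 and 1 for the interactions at 1 and 18 h (20% and 14.2%). With each library centred on its median, 5 members were called between genotypes at 1 h (37% of all genes). At 18 h the count was 1 without a filter and 1 in the narrow window around the start, 5 with whole merged regions (35.3% of all genes), and 1 to 1 when a replicate was left out. Over all genes, the alternatives at 18 h called between 519 and 4827, against 2688 in the original setting. The count of 5 holds Cxcl1 and Cxcl2, which share a whole merged region and so a single measurement, and Cxcl16, which was lower in KO (−0.37). The interaction at 1 h gave 0 members in the narrow window (limma) and 1 to 2 when a replicate was left out, and the narrow window gave 1 at 18 h. Calls over all genes moved too, from 410 to 4205 across the alternatives at 1 h (2476 in the original setting) and from 268 to 4405 at 18 h (2016). Values near 0 changed sign. Cxcl10 Pol II at 18 h in KO against WT was 0.047 with median centring and 0.51 over the whole region. Cxcl16 Pol II at 18 h against 0 h in WT was −0.049 with median centring, −0.34 with quantile normalization, −0.096 with input subtracted and −0.029 to 0.072 when a replicate was left out. Cxcl10 Pol II at 18 h against 1 h in KO was −0.35 with median centring and −0.022 to 0.27 when a replicate was left out. Over the whole region that step kept its sign and passed, at 0.87 (limma adjusted p = 1.0e-05). The causes were not tested.

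For H3K27ac, KO against WT at 0 h called 1 member with a common density floor, 3 without KO replicate 1 of 1 and 18 h and 2 without KO replicates 2 and 3 of those times, and 0 to 1 when a replicate was left out of both genotypes. At 1 h it called 2 with quantile normalization (22.6% of all genes), 2 with input subtracted (22.3%), 3 with whole merged regions (25.3%), 4 without KO replicate 1 (59.8% of all genes), 0 without KO replicates 2 and 3, and 0 to 4 when a replicate was left out. At 18 h it called 1 with input subtracted and 1 without KO replicate 1 (9.98% and 18.9% of all genes called, against 3.20%), and 0 to 1 in the leave-outs. There Cxcl10 was −0.72 without KO replicates 2 and 3 and −0.21 to 0.42 in the leave-outs. For 18 h against 0 h in KO the count was 5 with whole merged regions (58.4% of all genes). Cxcl1 and Cxcl2 share a whole merged region, so such counts hold a single measurement under both names. For 18 h against 1 h the counts were 2 in WT and 2 in KO under the stricter filter, 2 in KO under the stricter region threshold, and 1 to 6 in KO in the leave-outs. Cxcl11 in WT was then 0.092 over the whole region, and Cxcl10 in KO was −0.23 without KO replicates 2 and 3. The interactions called 1 member at 1 h without KO replicate 1 and 0 to 1 in the leave-outs. Over all genes, the alternatives for this term called between 0 and 5808, against 65 in the original fit. At 18 h they called 1 with the density floor, 1 with input subtracted, 2 without KO replicate 1 (14.4% of all genes), 7 without KO replicates 2 and 3 (40% of all genes), and 0 to 1 in the leave-outs. H3K27ac regions called between genotypes were 1 at 1 h with a pseudocount of 1, 2 with the stricter region threshold and 1 without KO replicate 1, 1 at 18 h with a pseudocount of 1, and 0 to 1 in the leave-outs at 0 h and 1 h. Under the stricter filter 3 and 5 were called in KO at 1 h and 18 h against 0 h. Without KO replicates 2 and 3 a single KO library is left at 1 and 18 h, which is assumed to vary like the other groups. At 18 h Cxcl1, Cxcl3 and Cxcl9, at 0 in WT and above 0 in that library, then entered the test and had to be higher. Counts of members called at 18 h under that setting are therefore not given.

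Samples with the same replicate number did not deviate together (same-numbered pairs correlated at −0.07 to 0.11 for Pol II, 1 of 45 over 0.1, and at −0.43 to 0.08 for H3K27ac, 0 of 45). No pairing by number was therefore used in the original fit. Weak correlation of deviations from group means cannot exclude that libraries of the same number shared a mouse or batch. With the replicate number as a block, 3 members in place of 5 passed the Pol II interaction at 1 h, with adjusted p of 0.067 for Cxcl2 and 0.053 for Cxcl10. Of the other values under alternatives, 729 of the Pol II gene values and 500 of the H3K27ac gene values kept their direction and side of the threshold. With the sign kept, 38 and 28 called results lost the threshold, and 11 and 17 uncalled ones passed it. Among the 8 and 5 values that changed sign, Cxcl10 Pol II at 18 h over the whole region (adjusted p = 0.0089), Cxcl16 Pol II with quantile normalization (0.017) and Cxcl10 H3K27ac without KO replicates 2 and 3 (0.0036) also passed, while Cxcl11 H3K27ac over the whole region (0.64) and Cxcl10 H3K27ac at 18 h against 1 h in KO (0.33) lost their calls.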
